A study of Homo sapiens with 27 samples.

Results

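The enzymes that build pyrimidine nucleotides and the DNA precursors were followed in U937, a human myeloid leukemia cell line, after treatment with matrine, a plant alkaloid. The group held 9 genes chosen by name: CAD, DHODH, UMPS, CTPS1 and CTPS2 of de novo pyrimidine and CTP synthesis, and TYMS, RRM1, RRM2 and RRM2B of thymidylate and deoxynucleotide synthesis. All 9 were among the 57905 genes of the expression table, and all 9 passed the filter on low values in every comparison. RNA was sequenced from 3 control libraries, 3 libraries of cells exposed for 30 min to matrine at 0.8 mg/ml and 3 libraries of cells exposed for 24 h to the same dose. The vehicle was ddH2O, the cells were otherwise unmodified, and the libraries of HL-60 and K562 cells are not analysed here. The culture time of the control cells is not given in the sources used here, so 24 h of matrine and 24 h more in culture cannot be told apart. The study describes its replicates as independent in general terms, but neither it nor the labels say whether the libraries of a group came from separate cultures, so p-values measure the spread between libraries, which may be technical.

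De novo synthesis begins with CAD, a single protein that carries the first 3 activities of the pathway and makes dihydroorotate. DHODH oxidizes dihydroorotate to orotate at the inner mitochondrial membrane, UMPS turns orotate into UMP, and CTPS1 and CTPS2 aminate UTP to CTP. Ribonucleotide reductase, made of the large subunit RRM1 and a small subunit, RRM2 or RRM2B, reduces ribonucleotides to deoxynucleotides, and TYMS methylates dUMP to dTMP. RRM2 is the small subunit of dividing cells, and RRM2B is the small subunit known from resting and stressed cells. Dividing leukemia cells depend on these enzymes, and DHODH, TYMS and ribonucleotide reductase are drug targets in leukemia and other cancers.

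Library totals ran from 17314931 to 21930018 counts, of which 4.99% to 5.28% fell on the 10 top genes. Within groups, libraries were farther apart than counting error, with chi-square values of 2.14 to 11.9 per degree of freedom, and each was kept as a replicate. Control replicate 2 stood apart from the other control libraries, at 7.20 and 7.39 against 2.38 between those, and the 30 min libraries were 5.28 to 11.9 from one another. The myeloid label was checked against 11 markers: 9 reached 1 FPKM in a library, led by ELANE and LYZ, while CD14 and CSF1R stayed below 1 in every library. The summed myeloid level was 1288 to 1446 FPKM in the control, 1369 to 1383 at 30 min and 1754 to 1880 at 24 h. ELANE made up most of the difference, with 823 to 983 FPKM in the control and 1337 to 1457 at 24 h. PTPRC rose from 14.98 to 17.49 FPKM in the control to 22.8 to 25.4 at 24 h, and CD4 from 28.45 to 28.83 to 42.77 to 44.73. ITGAM and MPO, at low levels, also rose at 24 h without overlap. LYZ went the other way, from 285 to 297 FPKM in the control to 241 to 247 at 24 h, and SPI1 and CEBPA were also lower at 24 h without overlap. CEBPA was already lower at 30 min without overlap, at 29.5 to 34.0 FPKM against 38.7 to 43.9 in the control. CD33 was higher at 30 min without overlap, at 15.14 to 16.64 FPKM against 14.41 to 14.99. On TMM-normalized values 7.03% of all genes tested had every 30 min library below the control and 7.15% every one above. The part of these markers in the enzymes' values was not tested. The 3 T cell, 3 epithelial and 2 fibroblast markers were below 1 FPKM in every library. Among the 6 erythroid markers HBG1 was at 0 in every library and EPOR and KLF1 reached 1 FPKM, and among the 3 B cell markers MS4A1 was at 0 in every library and CD79A reached 1 FPKM. MYC, the gene around which the study was built, had 204 to 213 FPKM in the control, 49.1 to 58.0 at 30 min and 42.2 to 46.1 at 24 h.

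Sequences are shown for DHODH, the enzyme with an E-box in its promoter, for RRM2, whose promoter repeats one motif, and for the primers with which the study assayed DHODH and UMPS. In the promoters of RefSeq (GRCh38.p14), 300 bases from 250 before to 50 after each start, 8 of the 9 enzymes had a window, 11 windows in all. Both strands were searched for the E-box CACGTG, a binding sequence of MYC and related factors, for the E2F sequences TTTCGCGC and TTTGGCGC, and for CCAAT, the sequence bound by NF-Y. The E-box was found in 1 of the 11 windows, that of DHODH, against 7.26% of 35116 human promoters. CCAAT was found in 5 of the 11 windows, those of CAD, DHODH and RRM1 and both windows of RRM2, against 34.6% of all promoters. The E2F sequences were found in 0 of the 11, against 1.15%. The DHODH stretch is given with the E-box in capitals, which begins 159 bases before the RefSeq start. The first exon of a longer GENCODE 44 transcript begins within it. The 3 RRM2 stretches, whose CCAAT letters begin 123, 93 and 66 bases before 1 of its RefSeq starts, are near-repeats of one another and lie within the first exon of a longer GENCODE transcript. A match is a description of the letters and not evidence of binding.
DHODH, chr16:72008555-72008600, plus strand: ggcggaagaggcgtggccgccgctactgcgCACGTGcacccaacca
RRM2, chr2:10122613-10122632, plus strand: cagCCAATgggaagggtcgg
RRM2, chr2:10122643-10122662, plus strand: cagCCAATgggaagggccgg
RRM2, chr2:10122670-10122689, plus strand: aagCCAATgggaagggccgg

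The study's own qPCR primers for DHODH and UMPS fix which part of each mRNA it assayed. On GENCODE 44 transcripts the DHODH pair enclosed 153 bases of coding exon 3, at chr16:72014482-72014634, in 8 of 9 transcripts. The UMPS pair enclosed 118 bases of exon 1, at chr3:124730502-124730619, in 8 of 11 transcripts. Both products lie inside a single exon.
DHODH sense primer: gttctgggccataaattccga
DHODH antisense primer: tctgggtctagggtttccttc
UMPS sense primer: ttggtgacgggtctgtacga
UMPS antisense primer: gaagacgcggtcgagacac

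Levels are given in FPKM, the read count scaled to gene length and to sequencing depth, which allows genes to be set side by side. In the control libraries TYMS (mean 114 FPKM) and RRM2 (112 FPKM) stood highest and their ranges overlapped. They were followed by RRM1 (58.9 FPKM), CAD (41.0 FPKM), CTPS1 (33.3 FPKM) and UMPS (21.6 FPKM), each range apart from the next. DHODH (6.67 FPKM) and RRM2B (6.42 FPKM) overlapped, and CTPS2 (1.36 FPKM) was lowest, close to the filter of 1 FPKM. At 30 min the order was the same, with the same pairs overlapping. At 24 h RRM2 (151 FPKM) stood apart above TYMS (101 FPKM), RRM2B (10.2 FPKM) had moved up beside UMPS (10.5 FPKM), and DHODH (3.56 FPKM) lay below both. These levels rest on the gene lengths the authors used: the deposited FPKM and counts imply 4313 bases for DHODH, 3499 for UMPS, 5749 for CTPS1 and 4954 for RRM2, shorter than the 6921, 7512, 11958 and 9153 exon bases of GENCODE 44.

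**Figure D1:**
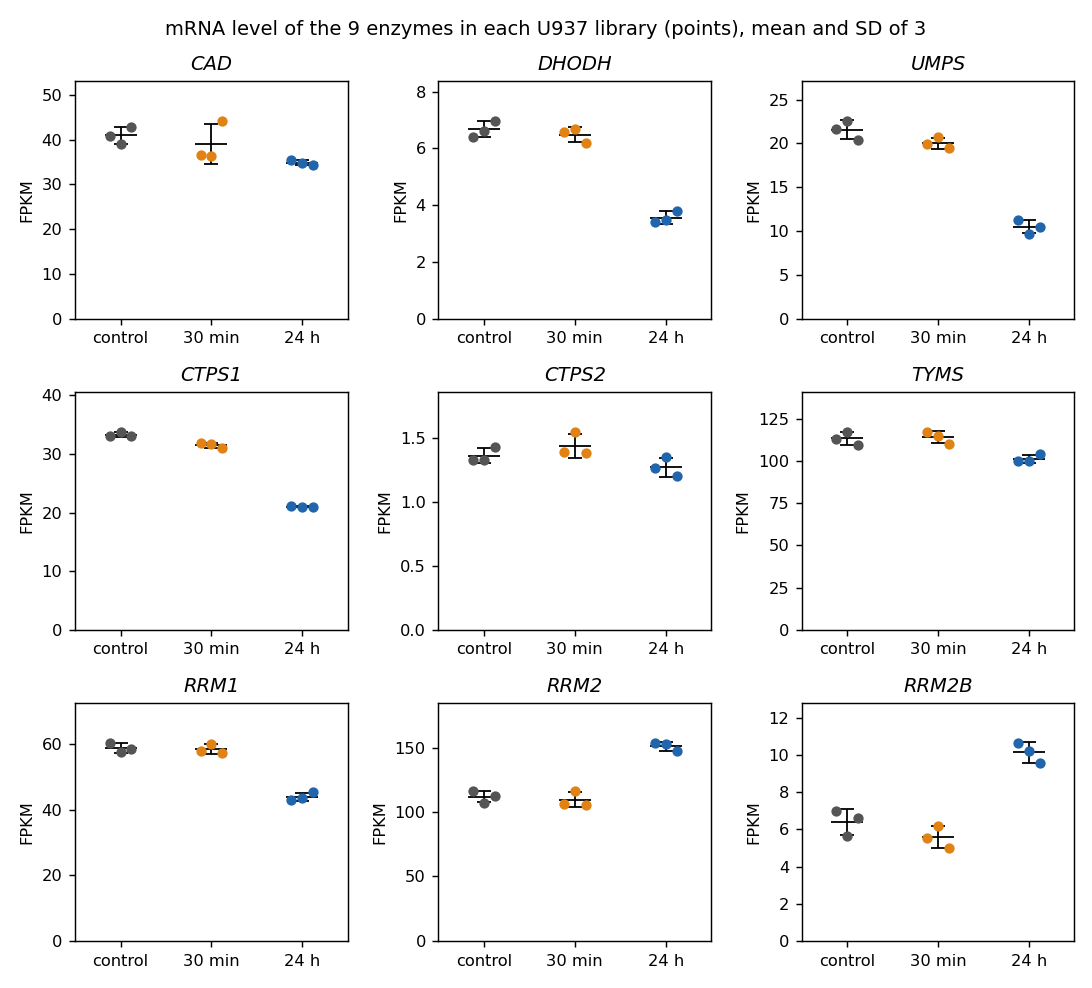
FPKM of each of the 9 enzymes in the 9 U937 libraries, 1 panel per gene with its own axis from 0; points are libraries, bars the mean and SD of 3. UMPS, DHODH and CTPS1 sit lower at 24 h than in every control library, and RRM2 and RRM2B sit higher.

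The first comparison asked which of these mRNAs had moved within 30 min of matrine. None was called. A call needed 1.5-fold or more and an adjusted p under 0.05 (edgeR quasi-likelihood test, adjusted by Benjamini-Hochberg over 11587 genes). By this rule 0 of the 9 were lower and 0 were higher, where 0.544% of all genes tested were called lower and 0.0949% higher. Estimated log2 fold changes ran from -0.19 for RRM2B to 0.10 for CTPS2. Their 95% intervals lay between -0.38 and 0.35, all inside the 1.5-fold limit of 0.585, and the normalized values of the 2 groups overlapped for all 9 genes, where 7.03% of all genes tested had every 30 min library below the control and 7.15% every one above. The smallest adjusted p was 0.44, for RRM2B. Without adjustment, RRM2B alone had a p below 0.05 (1 of 9), and DESeq2 and limma gave 0 of 9 at that level. MYC had fallen by then, by 1.93 on the log2 scale (SE 0.06, adjusted p = 2.7e-14, edgeR).

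The second comparison asked what had changed after 24 h. UMPS, DHODH and CTPS1 fell and RRM2B rose, so 3 of 9 enzymes were called lower and 1 higher, where 11.6% and 14.7% of 12035 genes tested were called in the same directions. RRM1, CAD and TYMS were lower and RRM2 was higher with adjusted p-values below 0.05 but changed by less than 1.5-fold, and CTPS2 did not pass the test. Without the fold threshold the count was 6 lower and 2 higher, where 32.7% and 30.6% of all genes passed in these directions. The median log2 fold change was -0.29 over the 9 enzymes and -0.01 over all genes tested. On TMM-normalized values the control and 24 h libraries did not overlap for any of the 9, as for 34.3% of all genes with every 24 h library below and 35.6% with every one above. The same 3 control libraries serve both times. In RNA from a whole culture, fewer cells that express a gene and less of its mRNA per cell cannot be told apart.

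**Figure D2:**
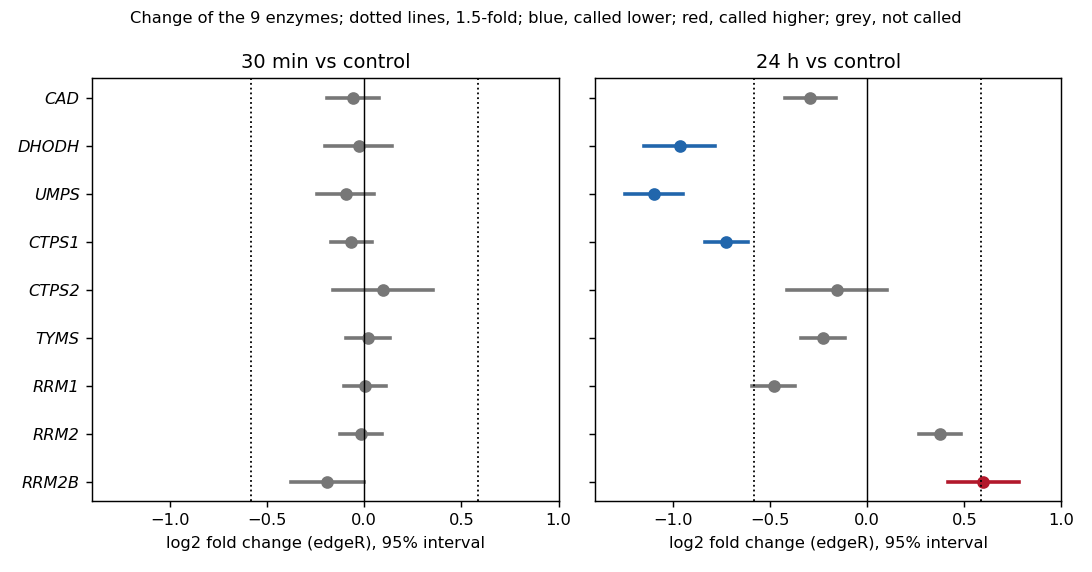
Log2 fold change against control (point, edgeR) with its 95% interval (line) for the 9 enzymes at 30 min (left) and 24 h (right); dotted lines mark 1.5-fold. At 30 min all intervals lie inside the dotted lines, and at 24 h UMPS, DHODH and CTPS1 lie beyond the lower line while the RRM2B point lies just past the upper line with an interval that crosses it.

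UMPS (ENSG00000114491, chromosome 3 from 124730433 to 124749273, plus strand, GRCh38) showed the lowest log2 fold change of the 9. Its level was 21.7, 22.6 and 20.4 FPKM in the control libraries, 19.9, 20.7 and 19.4 FPKM at 30 min and 11.3, 9.72 and 10.5 FPKM at 24 h. All 24 h libraries lay below all others, while the 30 min and control libraries overlapped. UMPS fell 2.14-fold at 24 h (log2 fold change -1.10, SE 0.07, adjusted p = 5.8e-11, edgeR). It was also lower at 24 h than at 30 min, by 1.00 on the log2 scale (SE 0.07, adjusted p = 2.3e-10, edgeR).

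DHODH (ENSG00000102967, chromosome 16 from 72008588 to 72027664, plus strand), the step before UMPS, fell 1.95-fold. It had 6.41, 6.63 and 6.98 FPKM in the control, 6.57, 6.68 and 6.18 FPKM at 30 min and 3.41, 3.46 and 3.81 FPKM at 24 h. The 24 h libraries were again below all others without overlap. The log2 fold change at 24 h was -0.97 (SE 0.09, adjusted p = 6e-09, edgeR) against control and -0.93 (SE 0.09, adjusted p = 8.9e-09, edgeR) against 30 min. DHODH counts were 302 to 359 at 24 h and 521 to 575 in the control. UMPS and DHODH ran in near parallel: the ratio of their FPKM was 2.93 to 3.41 in the control and 2.76 to 3.32 at 24 h, and these ranges overlapped.

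CTPS1 (ENSG00000171793, chromosome 1 from 40979300 to 41012565, plus strand), the CTP synthase on which proliferating lymphocytes depend, had 33.0, 33.8 and 33.0 FPKM in the control, 31.9, 31.6 and 31.0 FPKM at 30 min and 21.1, 21.0 and 21.0 FPKM at 24 h. In FPKM the 30 min libraries were all slightly below the control libraries, but after TMM normalization they overlapped. CTPS1 fell 1.65-fold at 24 h (log2 fold change -0.73, SE 0.05, adjusted p = 2.4e-10, edgeR). Against 30 min its log2 fold change was -0.66 (SE 0.05, adjusted p = 1e-09, edgeR), a call lost with library totals (-0.58), a filter at 5 FPKM (-0.57) and limma on FPKM (-0.58 and -0.56). DHODH, UMPS and CTPS1 are among the nucleotide genes that the study itself selected as down-regulated on these libraries, so their direction is not independent evidence.

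CTPS2 (ENSG00000047230, chromosome X from 16587999 to 16712936, minus strand), the second CTP synthase, was the one enzyme that did not pass the test at any time. It had 1.33, 1.33 and 1.43 FPKM in the control, 1.39, 1.55 and 1.38 FPKM at 30 min and 1.27, 1.35 and 1.2 FPKM at 24 h, on 136 to 176 counts per library. In FPKM the control and 24 h libraries overlapped. Its log2 fold change at 24 h was -0.16 with a 95% interval of -0.42 to 0.10 (adjusted p = 0.29, edgeR). A decrease like that of CTPS1 lay outside the interval, while decreases inside it cannot be told from no change. The summed level of both CTP synthases went from 34.6 ± 0.43 FPKM in the control to 22.3 ± 0.10 FPKM at 24 h (SD, n = 3). CTPS2 made up 3.79% to 4.15% of that sum in the control, 4.18% to 4.67% at 30 min and 5.42% to 6.05% at 24 h.

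CAD (ENSG00000084774, chromosome 2 from 27217369 to 27243943, plus strand), the entry to the pathway, had 40.9, 39.1 and 42.9 FPKM in the control, 36.6, 36.3 and 44.3 FPKM at 30 min and 35.5, 34.8 and 34.4 FPKM at 24 h. The 30 min libraries spread widely around the control, and the 24 h libraries lay below it. CAD was 1.22-fold lower at 24 h (log2 fold change -0.29, SE 0.06, adjusted p = 0.00048, edgeR), which is under the fold threshold. Its interval, -0.43 to -0.16, did not overlap those of UMPS (-1.25 to -0.95), DHODH (-1.15 to -0.78) or CTPS1 (-0.84 to -0.62), though the differences between genes were not tested. The summed FPKM of the 5 enzymes from CAD to CTPS2 was 104 ± 0.77 in the control, 98.5 ± 3.27 at 30 min and 71.3 ± 1.17 at 24 h (SD, n = 3).

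TYMS (ENSG00000176890, chromosome 18 from 657653 to 673578, plus strand), the target of fluorouracil, had 113, 117 and 110 FPKM in the control, 117, 115 and 110 FPKM at 30 min and 99.9, 100 and 104 FPKM at 24 h. The 24 h libraries lay below the others by a narrow margin. Its log2 fold change was -0.23 (SE 0.05, adjusted p = 0.0011, edgeR), under the fold threshold. On the opposite strand TYMS shares 967 exon bases with ENOSF1 and 193 with the lncRNA TYMSOS. ENOSF1 was higher at 24 h, by 0.32 on the log2 scale (SE 0.07, adjusted p = 0.00061, edgeR), and TYMSOS rose by 0.87 (SE 0.23, adjusted p = 0.003, edgeR) on only 30 to 94 counts. The strand setting of the counting is not given in the sources used here, so how reads of the shared bases were assigned is unknown. The pseudogenes TYMSP1 and TYMSP2 had 0 counts in every library.

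The large subunit of ribonucleotide reductase was lower at 24 h while both small subunits were higher. RRM1 (ENSG00000167325, chromosome 11 from 4094707 to 4138932, plus strand) had 60.5, 57.6 and 58.7 FPKM in the control, 58.1, 60.3 and 57.3 FPKM at 30 min and 43.1, 43.6 and 45.3 FPKM at 24 h. All 24 h libraries lay below all others. Its log2 fold change at 24 h was -0.48 (SE 0.05, adjusted p = 9.6e-08, edgeR), 1.40-fold lower and under the threshold. RRM1 shares 63 exon bases with RRM1-AS1, which had at most 1 count.

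RRM2 (ENSG00000171848, chromosome 2 from 10120698 to 10211725, plus strand) had 116, 107 and 112 FPKM in the control, 107, 116 and 106 FPKM at 30 min and 154, 153 and 147 FPKM at 24 h. Every 24 h library was above every other library. RRM2 was 1.30-fold higher at 24 h (log2 fold change 0.37, SE 0.05, adjusted p = 2.6e-06, edgeR), under the fold threshold. The pseudogenes RRM2P2, RRM2P3 and RRM2P4 had 0 to 3 counts.

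RRM2B (ENSG00000048392, chromosome 8 from 102204502 to 102238961, minus strand) had 7.02, 5.65 and 6.60 FPKM in the control, 5.54, 6.18 and 5.02 FPKM at 30 min and 10.7, 10.2 and 9.57 FPKM at 24 h. The 24 h libraries were above all others, and control replicate 2 was the lowest of its group. RRM2B rose 1.51-fold at 24 h against control (log2 fold change 0.60, SE 0.09, adjusted p = 5.2e-06, edgeR). This call stood just past the fold threshold and was lost without control replicate 2 (log2 fold change 0.52), without 24 h replicate 1 (0.57) and with no filter on low values (0.55), each time with an adjusted p below 0.05. Against 30 min RRM2B rose 1.73-fold (log2 fold change 0.79, SE 0.09, adjusted p = 1.2e-07, edgeR).

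Ratios within a library do not depend on how libraries are scaled. There were 1.86 to 1.92 FPKM of RRM2 per FPKM of RRM1 in the control, 1.83 to 1.93 at 30 min and 3.24 to 3.56 at 24 h. The log2 ratio was 0.86 higher at 24 h than in the control, with no overlap. RRM2B made up 5.01% to 5.71% of the summed small subunits in the control, 4.53% to 5.04% at 30 min and 6.11% to 6.49% at 24 h, so RRM2 remained the main small-subunit mRNA throughout. The log2 ratio of RRM2B to RRM2 was 0.22 higher at 24 h than in the control and that of CTPS2 to CTPS1 0.57 higher, neither with overlap, while that of UMPS to DHODH was 0.14 lower with overlap. A two-sided exact permutation test on 3 against 3 libraries can give no p below 0.1. The first 3 of these ratios reached it at 24 h (adjusted p = 0.2 over 8 tests), and UMPS to DHODH had p = 0.2 by the same exact test. CTPS2 to CTPS1 also reached it at 30 min (adjusted p = 0.2, same exact test), with a log2 ratio 0.15 above the control and no overlap. The other ratios overlapped with the control at 30 min (p = 0.2 to 0.6, same exact test). The summed FPKM of TYMS, RRM1, RRM2 and RRM2B was 291 ± 5.3 in the control, 288 ± 9.67 at 30 min and 307 ± 0.65 at 24 h (SD, n = 3).

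**Figure D3:**
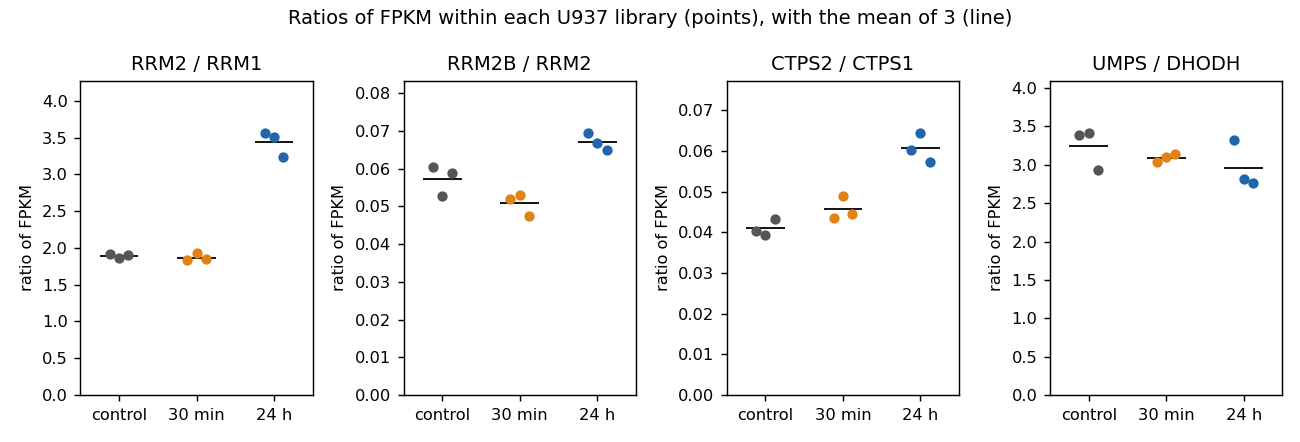
Ratio of FPKM of 4 enzyme pairs within each library, axes from 0; points are libraries and lines the mean of 3. RRM2 per RRM1 is 1.83 to 1.93 in the control and 30 min libraries and 3.24 to 3.56 at 24 h, while UMPS per DHODH overlaps between groups.

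The third comparison set 24 h against 30 min, which asks whether the change at 24 h differs from that at 30 min, since both share the control. DHODH, UMPS and CTPS1 were called lower and RRM2B higher, 3 and 1 of 9, where 11.3% and 15.7% of 11981 genes tested were called. RRM1 (log2 fold change -0.48), TYMS (-0.24) and CAD (-0.23) were lower and RRM2 (0.39) was higher with adjusted p-values of 0.0033 or less (edgeR) and under the fold threshold. Without that threshold 6 were lower and 2 higher, where 32.1% and 33.2% of all genes were. All 9 enzymes were without overlap between these times on TMM-normalized values, 7 below and 2 above, where 33.6% and 34.7% of all genes were. CTPS2 had a log2 fold change of -0.25 with a 95% interval of -0.51 to 0.0048 (adjusted p = 0.079, edgeR). MYC was lower still at 24 h than at 30 min, by 0.38 on the log2 scale (SE 0.06, adjusted p = 1.7e-05, edgeR), and 2.30 below control.

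The neighbouring steps of nucleotide metabolism were described with lists of genes, at 24 h against control. None of the listed genes tested at 30 min was called then, where 0.544% of all genes were called lower and 0.0949% higher. SAMHD1 and SLC29A2 were among those below the filter and not tested at that time. Calls in each list are to be read against the 11.6% of all genes called lower and the 14.7% called higher, or 32.7% and 30.6% with no fold threshold. Of 13 salvage genes 12 were tested, 0 were called lower and 2 were called higher: UPP1, the uridine phosphorylase (log2 fold change 0.87), and TK2, the mitochondrial thymidine kinase (0.96). With no fold threshold 3 were lower, among them the cytosolic kinase UCK2 (-0.33), and 4 were higher, among them TK1 (0.25). The salvage median was 0.05.

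Of 9 tested enzymes that phosphorylate nucleotides, 3 fell and 0 rose, with a median of -0.32. NME1 (log2 fold change -1.18), NME2 (-0.63) and NME7 (-0.77), of the nucleoside diphosphate kinase family, were the 3. NME1 and NME2 are near-identical neighbours, so how reads were divided between them is uncertain, and the NME2 call was lost under 7 of 22 alternatives, among them leaving out control replicate 2 (-0.58). Of 8 genes that limit or clean the deoxynucleotide pool 2 were called lower and 1 higher, with a median of -0.15. DCTPP1, a dCTP pyrophosphatase, fell from 80.9 to 37.4 FPKM (log2 fold change -1.17, SE 0.08), and NT5C, a deoxynucleotidase, had -0.61, a call lost under 8 of 22 alternatives, among them leaving out control replicate 2 (-0.56) or 24 h replicate 1 (-0.51). SAMHD1, a dNTP hydrolase, was the 1 called higher, with 0.99 FPKM in the control and 1.82 at 24 h, but it passed the filter only through its 24 h level, so its call carries no weight.

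The folate enzymes that feed TYMS moved in both directions: of 9 tested, 2 fell and 1 rose, with a median of -0.02. MTHFD1L (log2 fold change -0.90) and MTHFD1 (-0.80), which carry one-carbon units on folate, fell, and SHMT1 (0.59), which loads them, stood just past the threshold, below it without control replicate 1 or 24 h replicate 1 (0.57 each). Of 10 tested genes of pyrimidine breakdown 0 were called by edgeR, with a median of -0.13. With no fold threshold 5 were lower, led by the pyrimidine nucleotidase NT5C3A (-0.49), and 2 were higher, ENTPD4 (0.47) and NT5C2 (0.33).

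Of 16 genes that supply ribose phosphate, glutamine and aspartate 6 fell and 4 rose, with a median of -0.02. RPIA (log2 fold change -0.94), of the pentose phosphate pathway, and GOT2 (-0.93), the mitochondrial aspartate aminotransferase, fell, while PGD (1.16), of the oxidative pentose phosphate pathway, and ASNS (0.98), the asparagine synthetase, rose. The other 4 that fell were PRPS1 (-0.81) and PRPS2 (-0.60), which make the ribose donor PRPP, RPE (-0.68) and CPS1 (-0.61), and GOT1 (0.59) was among the others that rose. The calls of CPS1 and RPE were lost without 24 h replicate 1 (-0.56) and 24 h replicate 3 (-0.58) in turn. PRPS2 came to -0.58 without control replicate 2 or 24 h replicate 1 and to the threshold without control replicate 1 or 30 min replicate 1. GOT1 came to 0.58 without control replicate 1 or 24 h replicate 2 and to the threshold without control replicate 2. Of 6 tested nucleoside carriers 1 was called lower and 2 higher, with a median of 0.11. SLC29A1, the main equilibrative nucleoside transporter, fell from 74.8 to 30.1 FPKM (log2 fold change -1.38, SE 0.06). SLC28A3 rose by 1.19 on the log2 scale, from a low 1.16 to 2.76 FPKM. SLC29A2 had 0.46 FPKM in the control and 2.05 at 24 h and passed the filter only through its 24 h level, so its call carries no weight.

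Genes of S phase were read because the deoxynucleotide enzymes serve DNA replication. Of 28 tested S phase genes 5 were called lower and 1 higher at 24 h, where 11.6% and 14.7% of all genes were. Without the fold threshold 24 were lower and 2 higher, where 32.7% and 30.6% of all genes were, and the median was -0.40. RFC3 (log2 fold change -1.07), of the clamp loader, MCM2 (-0.68) and MCM4 (-0.67), of the replicative helicase, and POLA1 (-0.65), of the primase complex, were the leading ones, and PRIM1 (-0.59) was the last of the 5. The PRIM1 call was lost without control replicate 1 or 2, 30 min replicate 1 or 2 or 24 h replicate 3 (-0.58 to -0.54). E2F2 (0.65) was the gene that rose, a call lost without control replicate 2 (0.57). Beside the list median of -0.40, the log2 fold change was -0.48 for RRM1, -0.23 for TYMS and 0.37 for RRM2. The S phase genes ran from -1.07 to 0.65, and all 3 enzymes were within this range. Only E2F2 lay above RRM2, whose change was opposite in sign to the list median. The part of cell cycle position in the values of RRM1, RRM2 and TYMS was not tested.

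**Figure D4:**
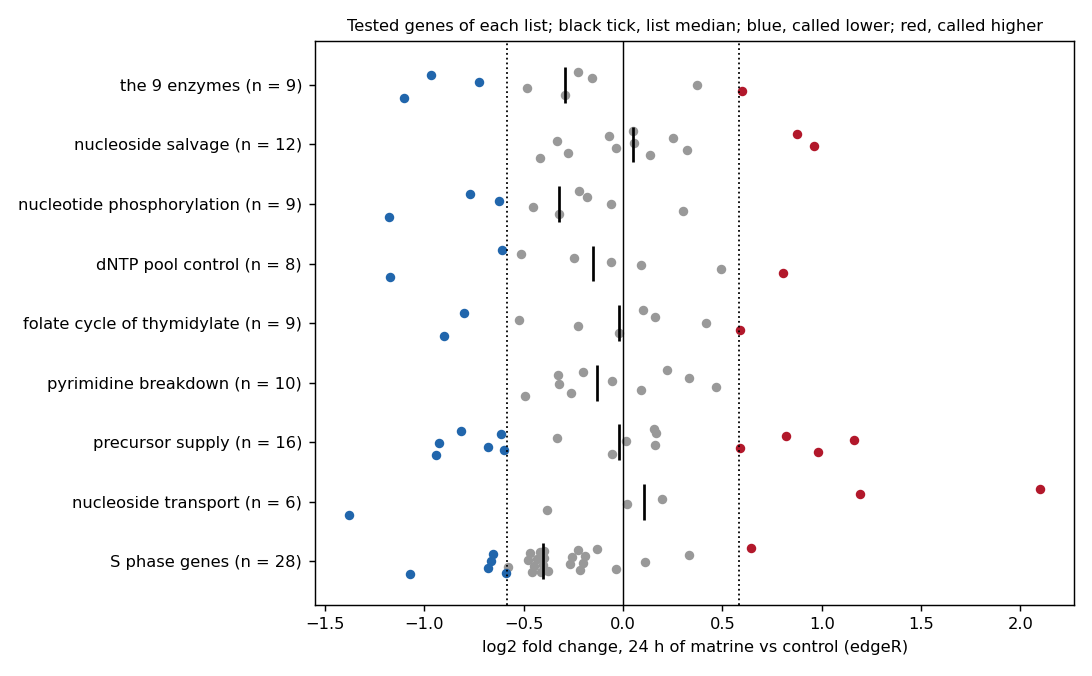
Log2 fold change at 24 h against control of the tested genes of each list; points are genes, black ticks list medians and dotted lines 1.5-fold. The enzymes of synthesis have a median of -0.29, the S phase genes of -0.40 and the salvage genes of 0.05.

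The genes whose course over the 9 libraries was most like that of each enzyme were found among 11513 genes, by the root mean square difference in log2 CPM after centring each gene on its control mean. EMG1 (0.03), EXOSC2 (0.05) and NOL10 (0.05) were nearest to DHODH. GPATCH4 (0.07), RFC3 (0.08) and ACTR3B (0.08) were nearest to UMPS, and NSUN2 (0.03), PSMD7 (0.04) and ELAVL1 (0.04) to CTPS1. MCM6 (0.02), IARS2 (0.02) and PARP1 (0.03) were nearest to RRM1, PRKAR1A, EIF4EBP2 and PKN2 (0.03 each) to RRM2, and PLSCR1 (0.04), WASHC4 (0.06) and RNF170 (0.06) to RRM2B. For CAD they were BIN3 (0.03), NOP9 (0.04) and RFX2 (0.04), for TYMS ARHGDIB, ATXN10 and CAT (0.03 each), and for CTPS2 ZNF263, LSM14A and PRPF38A (0.06 each). Among the 9 enzymes the closest pairs were CTPS2 with TYMS (0.10) and DHODH with UMPS (0.13), and the farthest was UMPS with RRM2B (0.99). RRM1 was nearer to CTPS1, CAD and TYMS (0.15 each) than to its partner RRM2 (0.50). These distances are descriptions over libraries that share their groups, with no test.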

How the data were processed

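RNA was sequenced in read pairs. The labels name a library kit for mRNA, and the methods name poly(A) selection or rRNA removal without saying which was used. The authors trimmed and mapped the reads and counted them per gene (per the labels, cutadapt 1.9.1, HISAT2 2.0.1 and HTSeq 0.6.1), and deposited raw counts and FPKM for each gene and library. The labels' processing notes name GRCh37 and the methods hg38, so the build is uncertain, and the annotation release and the strand setting are not given in the sources used here. Symbols (51996 of 57905 identifiers matched) and coordinates came from GENCODE 44 (GRCh38).

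Counts of all 9 libraries were tested with edgeR 4.0.16 (R 4.3.3), TMM normalization and glmQLFit and glmQLFTest. A gene entered a comparison where its FPKM averaged above 1 across those 6 libraries, and Benjamini-Hochberg adjustment ran over all such genes. Calls needed 1.5-fold or more and an adjusted p under 0.05. The SE was taken as the log2 fold change divided by the square root of F. On simulated data for 24 h against control, 190 of 200 genes changed 2-fold among 11899 were recovered, with 1 false call. The simulation gave every gene the same dispersion and did not exercise the filter, so these figures are not error rates for the real libraries. Ratios were tested on log2(FPKM + 0.1) by exact permutation (SciPy 1.17.1). Alternatives were DESeq2 1.42.0, limma 3.58.1 on log2 FPKM, other scalings, filters and fold thresholds, a replicate block and each library left out.

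The 9 enzymes and all lists were chosen with earlier results of these data known. Named besides the enzymes and MYC were up to 4 called genes of each reported list with the largest change at 24 h, the 3 nearest genes to each enzyme, genes that overlap an enzyme's exons and the cell markers. UCK2, TK1, NT5C3A, ENTPD4, NT5C2, PRPS1, PRPS2, RPE, CPS1, GOT1, PRIM1 and E2F2 were named after their values were seen. Some genes of the lists, and 1 whole list, are not reported here. UHRF1 was not matched, so 28 of 29 S phase genes were read. Promoter sequences are from RefSeq and primers from the study.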

Additional observations from a re-analysis of the deposited data

Results flagged for a closer look

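For 4 enzymes the change at 24 h differed from the change at 30 min by a test of the difference itself, the comparison of 24 h with 30 min in the edgeR fit, past both thresholds. The log2 difference was -1.001 for UMPS, -0.9345 for DHODH, -0.6577 for CTPS1 and 0.7906 for RRM2B. All 3 libraries at 24 h lay on the same side of all 3 at 30 min for each. That held for all 9 enzymes on TMM-normalized values, where 33.6% of all genes tested lay wholly below and 34.7% wholly above. Dixon's test for single outlying values was not run on groups of 3 libraries.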

How the results depend on the processing

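Of 22 alternatives, the call of UMPS at 24 h against control held in 22 and those of DHODH and CTPS1 in 21 each, lost only at a fold change of at least 2. At 24 h against control the number of enzymes called lower was 6 with no fold threshold, 5 at 1.2-fold and 1 at 2-fold. Of the 12035 genes tested, 3939, 3311 and 375 were called lower at these settings in turn. The number of enzymes called higher was 2 with no threshold and at 1.2-fold, and 0 at 2-fold and with no filter on low values. Of all genes tested, 3688 were called higher with no threshold, 3229 at 1.2-fold, 751 at 2-fold and 2610 of 27768 with no filter. Leaving out each library gave 3 lower throughout and 0 to 1 higher. Against 30 min, 6 were lower with no threshold and 1 at 2-fold, and 2 were higher with no threshold and at 1.2-fold and 0 at 2-fold. Of the 11981 genes tested there, 3844 were lower with no threshold and 340 at 2-fold. Those higher were 3981 with no threshold, 3486 at 1.2-fold and 791 at 2-fold. At 30 min against control 0 were called in all 22. Several estimates near 0 at 30 min changed sign. RRM1 was -0.00989 with library totals, -0.00123 with a filter at 5 FPKM, and -0.0092 and -0.00906 with limma on log2(FPKM + 0.1) and log2(FPKM + 1). Leaving out each library gave ranges of -0.00575 to 0.0369 for RRM1, -0.0402 to 0.0249 for RRM2, -0.151 to 0.02 for CAD, -0.0432 to 0.00794 for DHODH and -0.00891 to 0.0516 for TYMS. The cause was not tested. Genes called lower over the whole table at 24 h against control were 1401, against 375 at 2-fold and 3939 with no threshold, and those called higher 1773, against 751 and 3688. Without a filter they were 2003 and 2610. With a filter at 5 FPKM they were 771 and 890, and with limma on log2(FPKM + 1) 896 and 1485. The share of calls that were lower was 44.1%, 33.3% at 2-fold and 36.6% with library totals. At 30 min 23 were lower and 1 higher at 2-fold, and 18 were higher without 30 min replicate 2. The E-box share was 6.34%, the E2F share 0.968% and the CCAAT share 32.0% of promoters in the 250 bases before the start alone.

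The replicate numbers did not pair the libraries: same-numbered libraries had correlations of -0.159 to 0.103 in their deviations from the group means. With the replicate number as a block, 3 enzymes were called lower and 1 higher at 24 h, and over all genes 1393 and 1770. Depth limits CTPS2, at 136 to 176 counts per library, most. With 3 libraries per group the exact tests of ratios could not pass 0.05.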
